A study of Drosophila melanogaster with 4 samples.

Results

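The fly Drosophila melanogaster carries additional copies of many nuclear genes for subunits of the mitochondrial respiratory chain, and 10 of these copies are described here, each beside the standard gene of the same subunit (its parent). The copies are ND-51L1, ND-51L2 and ND-24L of complex I, SdhAL of complex II, UQCR-14L of complex III, COX4L and COX7AL2 of complex IV, and ATPsynbetaL, ATPsynCF6L and ATPsynGL of ATP synthase, also called complex V. They were listed by gene symbol, and the probe-to-gene table gave 1 probe set for each, so all 10 were found among the 11982 genes with a value. They were chosen by measured values of these same arrays, namely their lower signal in old flies and its dependence on diet. Their age differences are therefore a description and carry no test.

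The study measured expression in flies of different age, with and without feeding of curcumin, a polyphenol of turmeric. Adult flies of the Canton-S strain were kept on sucrose-yeast food with a curcumin solution or with its ethanol solvent alone. The 4 groups were young flies without curcumin, young flies on 100 µM curcumin, old flies without curcumin and old flies on 100 µM curcumin. The labels give young flies as 1 to 3 days old and old flies as 40 days old, and each pool as 30 males and 30 females. Age and the possible time spent on curcumin food cannot be told apart when its differences at both ages are set side by side. Each group was measured on 1 Affymetrix array. No difference between arrays has a replicate check, and precision is limited by how few arrays there are.

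Most of the ovary and eggshell marker genes listed were not detected. Of 22 ovary and eggshell marker genes on the array, 19 were below the floor described next on all 4 arrays. They included osk, vas and bcd, which act in the female germ line, with a highest reading of 8.78. The yolk protein genes Yp1 and Yp2, looked up after these values were seen, were above the floor only in old flies on curcumin, at 27.4 and 20.9. Yp3, the remaining yolk protein gene, was above the floor on all 4 arrays, at 43.6, 57.9, 47.9 and 56.8 in the order young without and with curcumin, then old without and with it. Of 44 testis marker genes, in contrast, 33 reached the floor on every array. The low readings of most ovary and eggshell genes stand beside labels that list females in every pool. Whether the pools held females was not tested. In RNA from pools of flies, fewer cells of a type and less RNA per cell cannot be told apart.

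Complexes I to IV of the respiratory chain pass electrons from NADH and succinate to oxygen and build a proton gradient, which ATP synthase uses to make ATP. Most of their subunits are encoded in the nucleus. In Drosophila, many such genes have a duplicate that is expressed mainly in the testis, while the parent gene is active throughout the body and most strongly in tissues such as flight muscle. None of the 10 copies lies within 10 protein-coding genes of its parent in the Release 6 gene table, and 9 of the 10 pairs are on different chromosome arms.

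Signals are MAS5 values on a linear scale after the arrays were brought to a common trimmed mean. Values below 19.3, the 40th percentile of all signals, were set to that floor before log2 differences were taken, and a difference against a floored value is a lower bound. A gene was compared in a pair of arrays if at least 1 of the pair was at or above the floor. Levels of different probe sets cannot be set against each other, so copies and parents are compared by their differences only. As a yardstick of technical error, genes with 2 probe sets were used. From the disagreement of their probe sets, the SD of 1 log2 difference was 0.40 for age without curcumin, 0.36 for age with curcumin, 0.25 for curcumin in young flies and 0.30 for curcumin in old flies. For the gap between the differences of 2 probe sets it was 0.57, 0.51, 0.36 and 0.42. These are values of 1 SD, so a larger difference can still arise between probe sets of 1 gene. This yardstick does not hold the spread between fly pools or between arrays.

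All 10 copies had their lowest signal in old flies without curcumin, as did 34.2% of all genes that reached the floor on any array. In old flies on curcumin all 10 were closer to the young values. Without curcumin, 9 of 10 copies were at least 2-fold lower in old than in young flies, with a median log2 difference of -1.57. Over all 9712 genes compared, 9.8% were at least 2-fold lower, 51.1% were lower by any amount and the median was -0.02. With curcumin, the copies' median age difference was -0.44 and 2 of 10 were at least 2-fold lower. Over 9749 genes, 2.63% were at least 2-fold lower, 50.4% were lower by any amount and the median was -0.0046. In young flies the median curcumin difference of the copies was -0.06, and in old flies it was 0.91. The age difference without curcumin and the curcumin difference in old flies share the array of old flies without curcumin, so its low readings enter both. The age differences of the diets share no array.

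**Figure D1:**
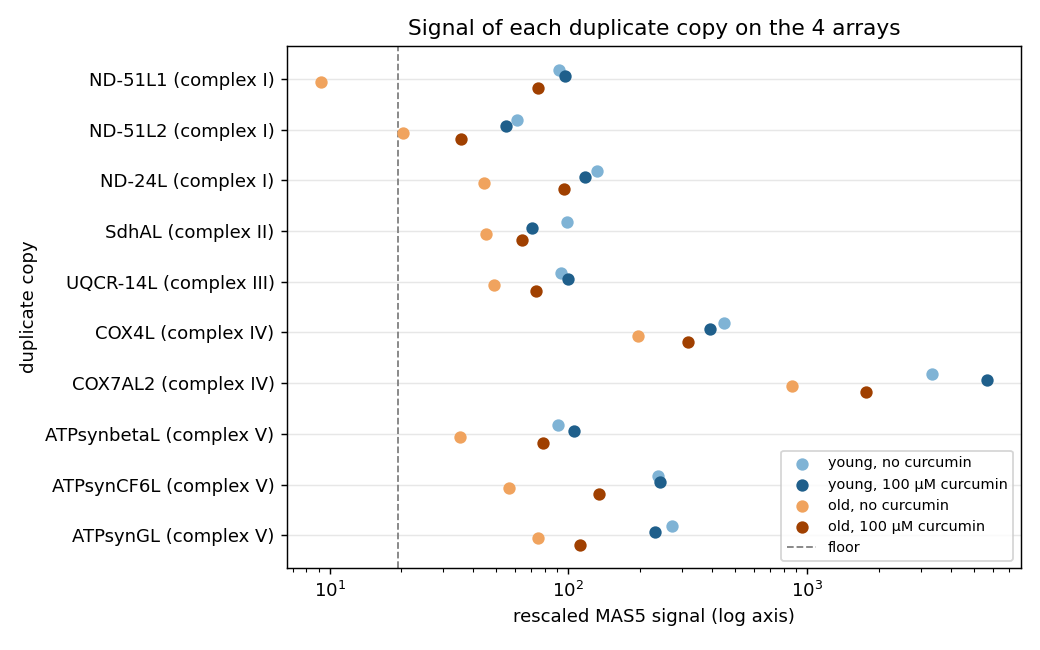
Signal of each of the 10 copies (rows, with their complex) on the 4 arrays, on a log axis of rescaled MAS5 signal, with 1 point per array and the floor of 19.3 as a dashed line. In every row the point of old flies without curcumin is leftmost, and for ND-51L1 it lies below the floor; positions in different rows come from different probe sets and are not comparable.

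ND-51L1 and ND-51L2 are copies of ND-51, the subunit of complex I that binds FMN and takes electrons from NADH. ND-51L1 read 91.3 in young flies without curcumin, 96.5 in young flies on curcumin, 9.16 in old flies without curcumin and 74.5 in old flies on curcumin. The reading of old flies without curcumin was thus the only one of a copy below the floor, at least 4.73-fold lower than in young flies and at least 3.86-fold lower than in old flies on curcumin. ND-51L2 read 61.0, 55.1, 20.4 and 35.6 on the same arrays, in the same order. Its lowest value was just above the floor, 3.00-fold below young flies of that diet. With curcumin, the age differences of ND-51L1 and ND-51L2 were -0.37 and -0.63 on the log2 scale.

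ND-24L is a copy of ND-24, an iron-sulfur subunit that sits beside ND-51 in the part of complex I that oxidises NADH. It read 131 in young flies without curcumin, 117 in young flies on curcumin, 44.5 in old flies without curcumin and 95.9 in old flies on curcumin. Old flies were 2.95-fold lower without curcumin and 1.22-fold lower with it. In old flies, curcumin food went with a 2.15-fold higher signal, and in young flies the arrays differed by 1.12-fold, less than the yardstick.

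SdhAL is a copy of SdhA, the FAD-binding subunit of complex II that oxidises succinate. It read 99.2 in young flies without curcumin, 70.6 in young flies on curcumin, 45.2 in old flies without curcumin and 63.8 in old flies on curcumin. Young flies without curcumin stood above the other arrays, while the arrays with curcumin were close together. The age difference was -1.13 without and -0.15 with curcumin, the latter within the yardstick. SdhAL had the lowest curcumin difference of the copies at both ages, -0.49 in young and 0.50 in old flies.

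UQCR-14L is a copy of UQCR-14, a small subunit of the cytochrome bc1 complex (complex III). It read 93.5 in young flies without curcumin, 99.4 in young flies on curcumin, 48.9 in old flies without curcumin and 72.9 in old flies on curcumin. It was the copy that did not reach 2-fold for age without curcumin, at 1.91-fold lower in old flies. With curcumin it was 1.36-fold lower.

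COX4L and COX7AL2 are copies of COX4 and COX7A, nuclear-encoded subunits of cytochrome c oxidase (complex IV). COX4L read 451 in young flies without curcumin, 391 in young flies on curcumin, 196 in old flies without curcumin and 319 in old flies on curcumin. Old flies were 2.30-fold lower without curcumin and 1.23-fold lower with it. COX7AL2 read 3343, 5689, 866 and 1759 on the same arrays, in the same order. Its young arrays were far apart, and both old arrays were well below both young ones. Old flies were 3.86-fold lower without and 3.23-fold lower with curcumin, and young flies on curcumin were 1.70-fold higher than young flies without it.

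COX7AL2 stood apart from the other copies. Its age difference with curcumin, -1.69, was lower than the next, -1.04 for ATPsynGL, and its curcumin difference in young flies, 0.77, was above the range of the other 9 copies (-0.49 to 0.23). The probe set of COX7AL2 was the 1 of 10 with the suffix s_at, which the array maker gives to probe sets whose probes match transcripts of more than 1 gene. Whether other transcripts entered its signal was not tested. Without COX7AL2, 1 of 9 copies passed 2-fold for age in flies on curcumin, and the median curcumin difference in young flies was -0.15.

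ATPsynbetaL is a copy of ATPsynbeta, the catalytic subunit of ATP synthase. It read 90.2 in young flies without curcumin, 106 in young flies on curcumin, 35.3 in old flies without curcumin and 78.1 in old flies on curcumin. Old flies were 2.56-fold lower without curcumin and 1.35-fold lower with it. ATPsynCF6L is a copy of ATPsynCF6, coupling factor 6 of the stalk that holds the catalytic head in place. It read 237 in young flies without curcumin, 243 in young flies on curcumin, 56.5 in old flies without curcumin and 135 in old flies on curcumin. After ND-51L1 it had the lowest age difference without curcumin, -2.07, and with curcumin it was at -0.85.

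ATPsynGL is a copy of ATPsynG, subunit g of the membrane part of ATP synthase. It read 273 in young flies without curcumin, 230 in young flies on curcumin, 74.5 in old flies without curcumin and 112 in old flies on curcumin. Both old arrays were below both young arrays by more than the yardstick, 3.66-fold lower without and 2.06-fold lower with curcumin. It was, beside COX7AL2, the other copy at least 2-fold lower with age in both diets. The threshold was barely passed with curcumin.

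Averaged over both diets, 5 of 10 copies were at least 2-fold lower in old flies, against 4.32% of 9476 genes. With an array without curcumin left out, so that the other diet stands alone, the number was 2, and with an array with curcumin left out it was 9. The mean log2 age differences ran from -1.82 for COX7AL2 to -0.64 for SdhAL. Their standard errors in an additive limma model of age and curcumin were 0.19 for COX7AL2 and 0.30 for SdhAL. The error was largest for ND-51L1, at 0.49, since this model counts a difference between the diets as error. Its 1 residual degree of freedom per gene holds noise and any interaction together.

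The age difference was closer to 0 with curcumin than without it in 10 of 10 copies. The difference with curcumin minus the difference without it was above 0 in 51.8% of 9476 genes compared in both diets. It had a median of 0.94 over the copies, from 0.26 for COX7AL2 to at least 1.87 for ND-51L1. For COX7AL2 and UQCR-14L (0.49) it did not pass the SD of 0.51 to 0.57 for the gap between 2 probe sets. That SD is only a rough guide here. It comes from 2 probe sets on the same arrays, while this quantity comes from 1 probe set over 4 arrays. This quantity is an interaction of age and diet, which 4 arrays with 1 per group leave without a test.

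**Figure D2:**
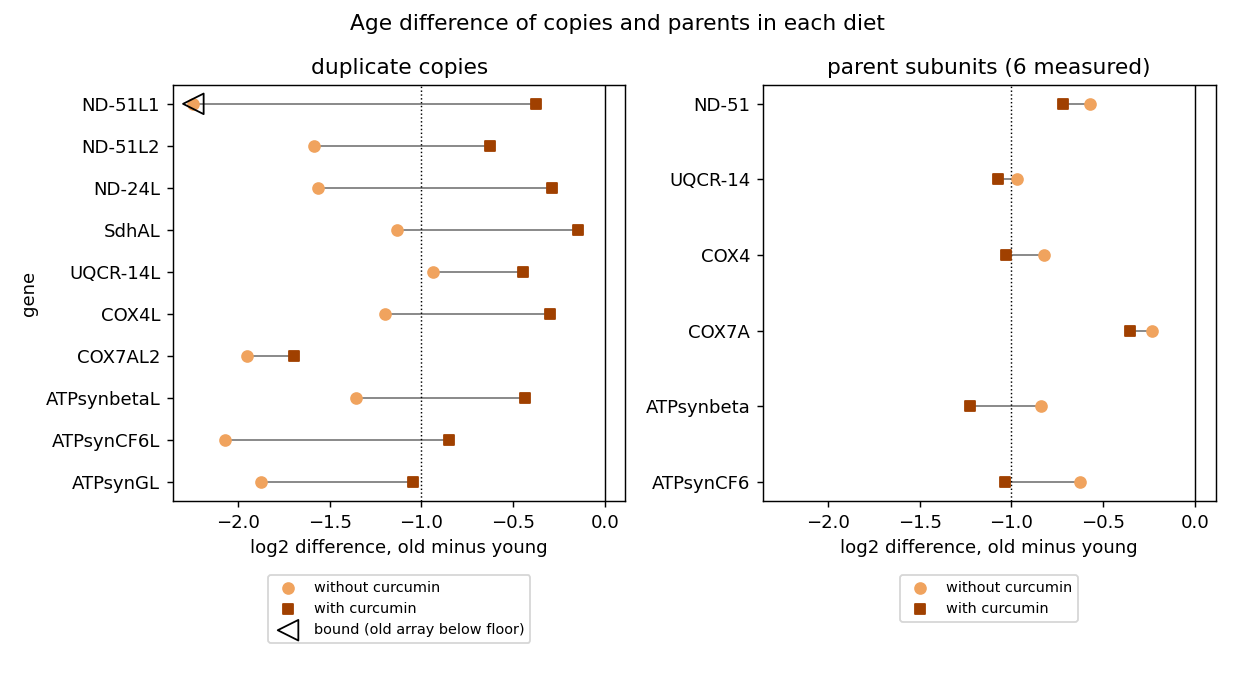
Log2 difference of old minus young flies without curcumin (circles) and with curcumin (squares) for the 10 copies (left) and the 6 parents with a value (right), with a dotted line at 2-fold lower and a triangle where the old array was below the floor. For each copy the square is nearer 0 than the circle, and for each parent as plotted the circle is nearer 0; for ATPsynbeta the brighter of 2 probe sets is plotted, and the other has the reverse order.

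Most parents showed the opposite order. Of 9 parent genes, 6 had a probe set of their own, which gave 7 pairs of copy and parent. ND-24 and SdhA had none in the table used here, and that of ATPsynG is shared with another gene. The age differences of the 6 parents lay between -0.97 (UQCR-14) and -0.23 (COX7A) without curcumin and between -1.22 (ATPsynbeta) and -0.35 (COX7A) with it. All 6 were further from 0 with curcumin, but ATPsynbeta had a second, dimmer probe set that went the other way, at -0.38 without and -0.31 with curcumin. The gaps between the diets were small for the other parents, from 0.10 for UQCR-14 to 0.41 for ATPsynCF6. None passed the 0.51 to 0.57 by which probe sets disagree, again only a rough guide to a gap between diets. ND-51 read 2866 in young flies without curcumin, 3385 in young flies on curcumin, 1931 in old flies without curcumin and 2058 in old flies on curcumin. Its highest array was that of young flies on curcumin, and its old arrays were nearly equal.

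Without curcumin, 6 of 7 copies had a lower age difference than their parent, with a median of copy minus parent of -1.01. The gap was at least 1.67 log2 units for ND-51L1, 1.72 for COX7AL2, 1.44 for ATPsynCF6L and 1.01 for ND-51L2. These were past the SD of 0.57 for the gap between 2 probe sets. The gap was 0.51 for ATPsynbetaL and 0.38 for COX4L, both within that SD, and UQCR-14L was 0.03 above its parent. Against the dimmer probe set of ATPsynbeta the gap of ATPsynbetaL was 0.98, past that SD. The median gap was -0.11 with a floor at the 60th percentile and -0.52 with a pseudocount of 16 in place of the floor.

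With curcumin, 6 of 7 copies had an age difference nearer 0 than their parent, and the median of copy minus parent was 0.34. ATPsynbetaL (0.79), COX4L (0.73) and UQCR-14L (0.62) were past the SD of 0.51 for the gap between 2 probe sets. ND-51L1 (0.34), ATPsynCF6L (0.18) and ND-51L2 (0.09) were within it. COX7AL2 was the exception at -1.34. With the dimmer probe set of ATPsynbeta the number was 5 of 7 and the median 0.18, since ATPsynbetaL was then lower than its parent (-0.12). The 2 probe sets of ATPsynbeta, at -1.22 and -0.31, were further apart than the 0.79 of ATPsynbetaL. In young flies, 6 of 7 copies had a lower curcumin difference than their parent, again with COX7AL2 as the exception, and the median was -0.39. With the dimmer probe set of ATPsynbeta the number was 5 of 7, and ATPsynbetaL was 0.11 above its parent. ND-51L1 (-0.16) and ATPsynbetaL (-0.33 against the brighter probe set) were within the SD of 0.36 for such gaps. In old flies, 7 of 7 copies had a higher curcumin difference than their parent, from 0.12 for UQCR-14L to at least 1.86 for ND-51L1, with a median of 0.85. UQCR-14L and COX4L (0.34) were within the SD of 0.42.

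**Figure D3:**
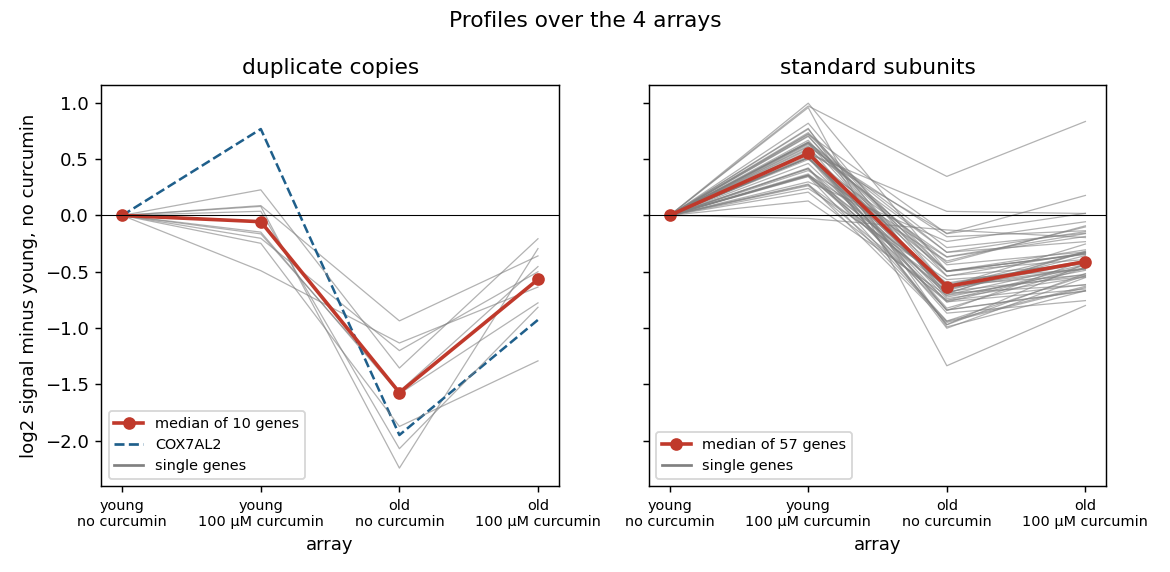
Log2 signal on each array minus that of young flies without curcumin, for the 10 copies (left) and for 57 standard subunits that reached the floor on every array (right), with single genes as grey lines, COX7AL2 dashed and the median in red. The copies' median is at -0.06, -1.57 and -0.57 and that of the standard subunits at 0.55, -0.63 and -0.41 in young flies on curcumin, old flies without and old flies on curcumin.

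Curcumin differences in young flies were small for most copies. No copy was at least 2-fold higher or lower, against 0.389% and 0.399% of 9764 genes. There were 5 copies above 0 and 5 below 0, against 43.8% and 56.2% of all genes. The signs of ND-51L1, UQCR-14L and ATPsynCF6L, all within 0.09 of 0, turned without rescaling of the arrays. Apart from COX7AL2 (0.77) and SdhAL (-0.49), all copies were within the yardstick of 0.25.

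In old flies all 10 copies were higher with curcumin, as were 48.3% of all genes by any amount, and 5 of 10 were at least 2-fold higher, against 5.2% of 9612 genes. They were ND-51L1 (at least 3.86-fold), ATPsynCF6L (2.39-fold), ATPsynbetaL (2.22-fold), ND-24L (2.15-fold) and COX7AL2 (2.03-fold). The number was 3 with each array centred on its median, against 4.05% of all genes. With a floor at the 60th percentile it was 1, against 3.91%, and ND-51L2 and SdhAL had no value there. All 10 copies stayed below both young arrays in old flies on curcumin, by any amount. The share of all genes below both was not counted, but 50.4% were lower with age on that diet. For SdhAL (-0.15), ND-24L (-0.29) and COX4L (-0.30) the age difference on curcumin was within the yardstick of 0.36. Against young flies without curcumin the smallest drop was that of ATPsynbetaL, at -0.21.

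The mean curcumin difference over both ages is orthogonal to the age differences of either diet and was tested with limma over 9562 genes. The test called 0 genes (0%), and thus 0 of 10 copies, at 0.05 after Benjamini-Hochberg adjustment, where the lowest value was 0.83. The copies were chosen partly because their age difference depended on diet, and this model counts that dependence as error. The choice thus enlarged their standard errors, so no conclusion about the copies is drawn from their 0 of 10. At an unadjusted p below 0.05 there were 344 genes, and as many when the prior was robust and followed intensity. COX7AL2 was the 1 copy among them, 0.89 log2 units higher with curcumin (SE 0.19), higher at both ages, with an adjusted p in limma of 0.83. On simulated data of 9562 genes for this comparison, the test called 0% of genes changed 2-fold. It called 50.7% of those changed 4-fold and 92.4% of those changed 8-fold. Averaged over both ages, the copies' curcumin differences ran from 0.003 (SdhAL) to at least 1.01 log2 units (ND-51L1). Mean differences of about 2-fold or less were thus beyond its reach.

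Most of the other copies measured in the pathway had a similar pattern. Names alone gave 11 further copies, whose symbol is that of a subunit plus L, and 8 of them were measured. Without curcumin 6 of these 8 were at least 2-fold lower in old flies, with a median of -1.18, and with curcumin 0 of 8, with a median of -0.36. UQCR-11L, a copy of a complex III subunit, read 215 in young flies without curcumin, 214 in young flies on curcumin, 68.8 in old flies without curcumin and 155 in old flies on curcumin. ND-20L of complex I had the lowest age difference of these copies without curcumin, -1.71. SdhBL of complex II differed little between the arrays, at 122, 109, 110 and 106. The remaining copies measured were COX5BL, COX7AL, Cyt-c1L, ND-B14.5AL and SdhCL, with age differences without curcumin between -1.32 (COX7AL) and -0.54 (SdhCL). With curcumin, 6 of the 8 were lower in old flies, while SdhCL (0.37) and COX7AL (0.01) were above 0.

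Standard subunits were listed by name, while the 10 copies beside them had been chosen by their values on these arrays. Of 61 measured, 4 were at least 2-fold lower with age without curcumin (median -0.65), against 9.8% of all genes. With curcumin there were 18 (median -0.92), against 2.63%. Quantile normalization gave 8, and no rescaling 9, in place of 18. COX6AL and COX6CL were among the 4, and with ATPsynepsilonL they are themselves named as copies, of subunits whose standard genes carry other names. Without these names, 2 of 58 standard subunits were at least 2-fold lower without curcumin. The age difference was lower with curcumin than without it in 54 of 61 standard subunits, and higher with it in 10 of 10 copies and 8 of 8 further copies. The order in the 10 copies follows in part from how they were chosen. This comparison between the lists was not tested. Young flies on curcumin had a median difference of 0.53 over the standard subunits, with 56 of 61 above 0, against 43.8% of all genes. The lowest mean age differences among standard subunits were those of ND-B8 (-1.55) and ND-19 (-1.22) of complex I. The highest were those of sun (0.35) of ATP synthase, below the floor on 1 array, and UQCR-11 (0.10) of complex III, near it.

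**Figure D4:**
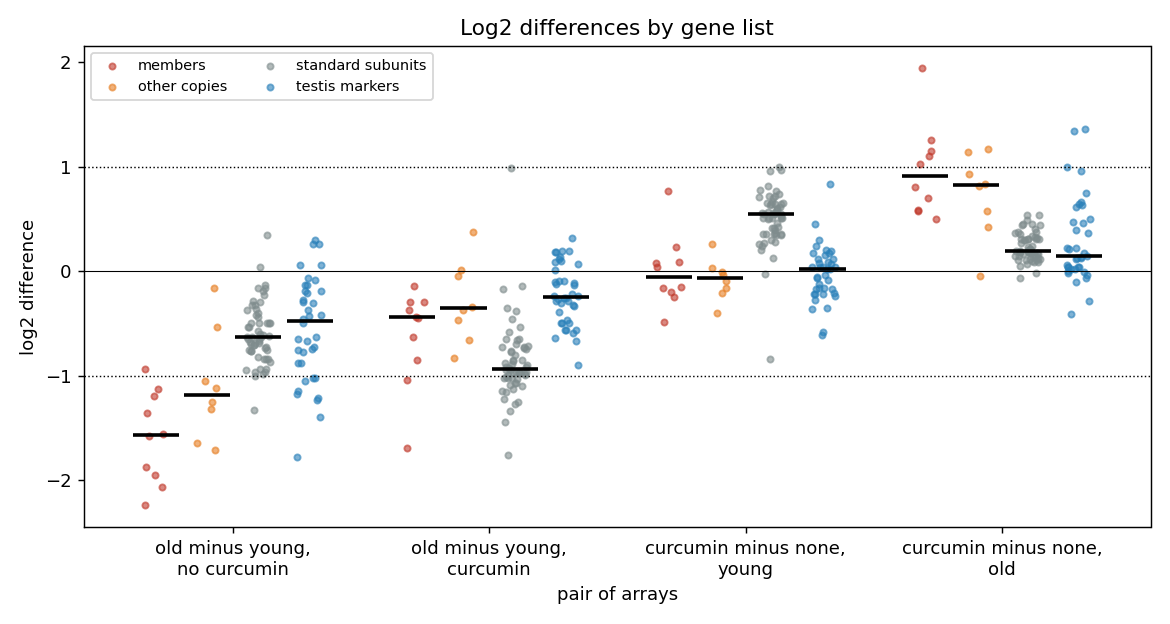
Log2 differences of the 10 copies, 8 further copies, 58 standard subunits and the measured testis markers (points, 1 per gene) in the 4 pairs of arrays, with a black bar at each median and dotted lines at 2-fold. For age without curcumin the medians are -1.57, -1.18, -0.63 and -0.47, and for age with curcumin -0.44, -0.36, -0.94 and -0.25.

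The summed signals of all 4 lists of tissue markers were lowest in old flies without curcumin. That array was also the lowest for 34.2% of all genes that reached the floor on any array. Sums follow the brightest probe sets, and single genes diverged. Age differences without curcumin ran from -2.72 to 0.50 over the accessory gland genes and from -3.80 to 1.07 over the muscle genes. The sum over 44 testis marker genes was 9590 in young flies without curcumin, 8778 in young flies on curcumin, 6305 in old flies without curcumin and 7449 in old flies on curcumin. Of 38 testis markers compared without curcumin, 9 were at least 2-fold lower in old flies, and the median was -0.47. With curcumin 0 of 40 were, with a median of -0.25. The markers with the highest signals were betaTub85D, the testis beta-tubulin (log2 differences of -1.17 without and -0.50 with curcumin), the sperm chromatin gene Mst77F (-0.65 and -0.33) and the sperm protein gene Mst84Db (-0.88 and -0.50). The largest mean age differences were those of sa, a testis-specific factor of spermatocyte transcription (-1.78, a bound, and -0.59), tomb (-1.23, a bound, and -0.57) and soti (-1.14 and -0.56).

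The sum over 20 accessory gland genes was 71209 in young flies without curcumin, 68262 in young flies on curcumin, 38625 in old flies without curcumin and 64648 in old flies on curcumin. The sum over 22 ovary and eggshell genes, most of them below the floor, was 1145, 1069, 873 and 1076 on the same arrays, in the same order. Most of it came from 2 genes, exu (531, 434, 307 and 490) and gus (475, 484, 393 and 447). Muscle genes had sums over 18 genes of 32003, 51297, 18783 and 21791, highest in young flies on curcumin like the median of the standard subunits. The part of testis, accessory gland, ovary or muscle content in the differences of the copies was not tested.

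The likeness of other genes to the copies was measured as the Euclidean distance, over the 4 arrays, between log2 profiles centred on their own mean. The reference was the mean profile of the 9 copies that reached the floor on every array. Of 8667 candidate genes, the nearest were CG42850 (distance 0.05), CG16719 (0.07), Prx1 (0.07), CG17207 (0.09) and CG15286 (0.10). CG42850 read 228 in young flies without curcumin, 220 in young flies on curcumin, 79.6 in old flies without curcumin and 138 in old flies on curcumin. Among the copies the distance ran from 0.10 for ND-51L2 to 0.93 for COX7AL2. Genes outside the copies that lay nearer to the reference numbered 4 for ND-51L2, 416 for UQCR-14L, 792 for SdhAL and 1969 for COX7AL2. UQCR-11L was the nearest of the 8 further copies, at rank 85 (0.22), and of the 6 parents UQCR-14 was nearest, at rank 533 (0.50).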

How the data were processed

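The deposited table holds 1 column per array for 18769 probe sets, taken as log2 MAS5 signals because the values run from -4.67 to 13.4. MAS5 is named in the submitters' processing notes, and its version, the genome build and detection calls are not given in the sources used here. Signals were back-transformed, scaled to a common 2% trimmed mean (factors from 0.975 to 1.06), floored at 19.3 and log2-transformed. The floor was reached by 76.2% to 79.2% of genes per array. Probe sets with 1 gene (13647, of which 13544 matched the current gene table of assembly Release 6) were named by gene number. A gene with several was represented by the one with the highest mean log2 signal. Groups came from the labels.

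Pairs of arrays were compared without a test. The additive model used limma 3.58.1 (lmFit, eBayes; R 4.3.3) over the 9562 genes that reached the floor on 2 or more arrays, and was tested on simulated data. Its p-values measure only the spread between these arrays. Members, gene lists and alternatives were chosen with earlier results of these data known. The genes named are the members and parents, further copies, the 2 lowest and 2 highest standard subunits by mean age difference, the testis markers of highest signal and of largest mean age difference, and the 5 genes nearest in profile. Outside this rule, osk, vas, bcd, the yolk protein genes, COX6AL, COX6CL, ATPsynepsilonL, ProtA and the testis-type copies in the closing section were named after their values were seen. Accessory gland and muscle markers, which the rule also covers, are given as sums and ranges only. Of the ovary markers it covers, exu and gus are named. Python 3.11.15 with numpy 2.4.6 and pandas 2.3.3 was used.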

Additional observations from a re-analysis of the deposited data

Results flagged for a closer look

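SdhAL, the copy of the FAD-binding subunit of complex II, was lower on curcumin food in young flies (-0.49 on the log2 scale) and higher on it in old flies (0.50), both beyond the yardstick from probe sets of the same gene. The curcumin difference in old flies minus that in young flies was 0.987, and this difference was not tested. The other 9 copies did not have opposite signs beyond the yardstick at both ages, but ATPsynGL missed this narrowly. It was at -0.248 in young flies, against a yardstick of 0.252, and at 0.58 in old flies. ND-51L2, ND-24L and COX4L were also lower in young and higher in old flies, within the yardstick in young flies. The 0.987 of SdhAL was close to the copies' median of 0.94 for this quantity.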

How the results depend on the processing

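The alternatives were other scalings, floors, a pseudocount, the mean over probe sets and a 3-fold threshold. The age differences of the copies were below 0 in all cases with a value in either diet, and the curcumin differences in old flies above 0. ND-51L2 had no value with the floor at the 60th percentile, nor had SdhAL for curcumin in old flies. For age without curcumin, 4 copies were past 2-fold with that floor (median -0.95), against 6.52% of all genes, and 4 at 3-fold. No share of all genes was taken at 3-fold. A floor that high lies above several readings of old flies. For age with curcumin, 1 copy was past the threshold without rescaling, with median centring, with the pseudocount, at 3-fold and without COX7AL2. Of all genes, 1.85% were at least 2-fold lower without rescaling, 2.20% with median centring and 2.06% with the pseudocount. For curcumin in old flies the number was 3 with median centring or the pseudocount, against 4.05% and 3.46% of all genes. It was 1 with the 60th percentile floor (median 0.54), against 3.91%, and 1 at 3-fold. The median in young flies turned to 0.037 with the 60th percentile floor. The signs of ND-51L1 (-0.020), UQCR-14L (-0.013) and ATPsynCF6L (-0.063) turned in young flies without rescaling. For the mean over diets, 3 copies were past 2-fold with the 60th percentile floor and 1 at 3-fold, and leaving out 1 array gave 2 to 9 copies and medians of -1.57 to -0.44. The median of copy minus parent for age without curcumin was -0.11 with the 60th percentile floor and -0.52 with the pseudocount. With the dimmer ATPsynbeta probe set, also added later, the median with curcumin was 0.18 in place of 0.34. At 3-fold, 2 further copies and 0 standard subunits were lower without curcumin, and 1 standard subunit with it. Standard subunits past 2-fold with curcumin were 8 with quantile normalization and 9 without rescaling. Counting the 4 symbols ending in L as copies, an alternative added after seeing the data as was leaving out COX7AL2, left 2 standard subunits without curcumin.

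Median centring moved the median of all genes to 0.18 for age without curcumin and to -0.13 for curcumin in old flies, and no rescaling moved it to 0.12 for age with curcumin and to -0.13 for curcumin in young flies. Relative to those medians the copies were at -1.55, 0.93, -0.43 and -0.02. The higher share of all genes past 2-fold for age without curcumin was 30.1% and became 52.0% with median centring. For age with curcumin it was 53.3% and became 69.6% without rescaling, for curcumin in young flies 49.4% and 33.3%, and for curcumin in old flies 80.6% and, with median centring, 67.0%. limma called 0 genes for curcumin under every alternative, with 34 (no age term) to 613 (median centring) at an unadjusted p below 0.05. No paired analysis was possible because each group had 1 array. The planned search for promoter motifs was not run, since no promoter sequences were used here. Signals near the floor limit ND-51L1 and ND-51L2 most.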

Other observations

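Copies of other housekeeping proteins among the testis markers differed in their profiles, and the genes given here were picked after their values were seen. Hsp60B, a copy of the mitochondrial chaperonin gene, read 106 in young flies without curcumin, 121 in young flies on curcumin, 40.5 in old flies without curcumin and 103 in old flies on curcumin. Prosalpha6T, a testis form of a proteasome subunit, read 121, 124, 52.0 and 103 on the same arrays, in the same order. In both, old flies without curcumin were the low array. Prosbeta2R1, another proteasome copy, was lower in old flies by a like amount in both diets, with log2 age differences of -0.78 without and -0.67 with curcumin, and Prosalpha4T2 had -0.46 and -0.27. Pglym87, a copy of a phosphoglycerate mutase gene, read 57.6, 78.7, 69.1 and 56.9, with its lowest array in old flies on curcumin. The sperm chromatin gene ProtA, no such copy, read 113, 116, 118 and 124.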
